A study of Arabidopsis thaliana with 4 samples.

Results

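Aldehyde dehydrogenases oxidise reactive aldehydes to carboxylic acids, with NAD or NADP as the electron acceptor. In plants the superfamily works in the breakdown of amino acids and polyamines, in carbon metabolism and in the removal of aldehydes that form when membranes are oxidised under stress, and its members sit in different compartments of the cell. The members described here are the probe sets for which the array annotation gives a single gene whose symbol starts with ALDH. There were 5 of them, among 3794 single-gene and 8247 analysed probe sets, each for a different gene: ALDH10A9 (AT3G48170, probe set 13130_at), ALDH11A3 (AT2G24270, 14986_at), ALDH7B4 (AT1G54100, 16524_at), ALDH6B2 (AT2G14170, 17868_at) and ALDH3F1 (AT4G36250, 19439_at). All 5 kept their symbols in the current gene table. A further 11 superfamily genes were looked for by locus, among them P5CS1 and P5CS2, and 0 of the 11 were named by the annotation, so the values below cover only part of the superfamily.

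Rosette leaf RNA of the Arabidopsis thaliana ecotype Col-5 was hybridised to Affymetrix arrays of a single colour, with 1 array for each of 4 nutrient solutions. The plants grew on agar medium with 1% sucrose and a 16 h day until day 21 and then in hydroponics under constant light, at a temperature of 24 °C and a humidity of 80%, and all samples, the full-nutrient one included, are labelled as 28 h after nutrient removal. The full solution held 0.25 mM KH2PO4 and 0.5 mM KOH. The nitrate-free solution lacked calcium nitrate and had 4 mM calcium sulphate added. The phosphate-free solution lacked KH2PO4 and had 0.125 mM potassium sulphate added. From the potassium-free solution KH2PO4 and KOH were both left out, and it had 0.27 mM calcium dihydrogen phosphate added. The recipe given for the full solution lists no nitrate salt, so how much nitrate the reference plants had is not known, and the removed nutrient cannot be told apart from the salt that was added with its removal. The labels do not say how many plants gave the RNA of an array. With 1 array per solution there was no replicate spread, no difference was tested, and every ratio below describes these arrays only.

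The arrays had been scaled to nearly the same level, with trimmed means between 100.146 and 100.174, and signals are given as deposited. A signal under 25.04, 0.25 of the common trimmed mean, was treated as too dim for a ratio, and between 47.5% and 49.6% of probe sets lay above this floor on each array. The leaf label was read against organ markers: 7 photosynthesis genes had mean signals from 105.5 to 7161.5 over the arrays, and the flower marker AT5G07230 was below the floor on all 4 arrays. Root was checked with 1 gene only, the beta-glucosidase gene BGLU21. Its signal was 1.7, 0.8 and 5.3 on the full-nutrient, nitrate-free and phosphate-free arrays and 377.2 on the potassium-free array. The same array had all 7 photosynthesis genes below their full-nutrient level, with a median log2 ratio of -0.84, and on the phosphate-free array all 7 were below it too, with a median of -0.27. Any part of these shifts in the aldehyde dehydrogenase values was not tested. Whether root material was present in the potassium-free sample was not tested either, and BGLU21 alone cannot tell it apart from a rise of this gene in leaves. In whole leaves a smaller share of a cell type cannot be told apart from less transcript per cell.

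**Figure D1:**
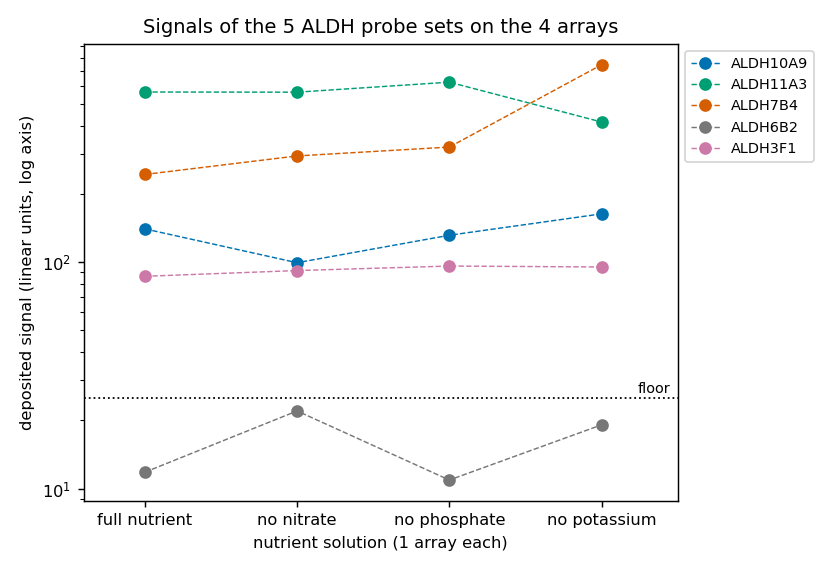
Deposited signal (linear units on a log axis) of the 5 ALDH probe sets on the 4 arrays, 1 point per array; dashed lines only join the points of a gene, and the dotted line is the floor of 25.04. ALDH7B4 stands out on the potassium-free array at 743.3, while ALDH3F1 stays between 86.5 and 96.0 and ALDH6B2 lies below the floor throughout.

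ALDH7B4 showed the widest range of the measured members, and the potassium-free array set it apart. The gene encodes the plant counterpart of antiquitin, an enzyme that in mammals oxidises the semialdehyde formed in lysine breakdown, and in Arabidopsis its transcript is known to accumulate under dehydration, salt and abscisic acid. Its signal was 243.6 on the full-nutrient, 294.1 on the nitrate-free, 321.9 on the phosphate-free and 743.3 on the potassium-free array. The first 3 values lie close together and the last is more than 2 times any of them. ALDH7B4 was thus 3.05-fold higher without potassium than with full nutrients, a log2 ratio of 1.61. Counted from the most positive ratio, it took place 88 among the 3714 probe sets above the floor on both of these arrays.

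ALDH7B4 on the potassium-free array also stood above the other depletions. Set directly against the other depletions, the potassium-free signal was 2.53-fold above the nitrate-free and 2.31-fold above the phosphate-free signal. This gene was the only measured member at least 2-fold above each of the other 3 arrays on the potassium-free array. Of all 8247 probe sets, dim ones included, 1.48% were, and the share among bright ones alone was not computed. Without phosphate the ALDH7B4 signal was 1.32-fold (log2 ratio 0.40) and without nitrate 1.21-fold (0.27) the full-nutrient signal. To give these smaller ratios a scale, genes with several measured probe sets were used. The log2 ratios of such probe sets of a gene differed by a median of 0.27 without nitrate, 0.24 without phosphate and 0.30 without potassium, and 10% of these genes differed by over 0.50, 0.56 and 0.57. These differences come from the same RNA on the same arrays and leave out the spread between plants and hybridisations. The phosphate and nitrate ratios of ALDH7B4 lay between the median and the limit that 10% exceeded, and the order of its lower 3 arrays is therefore not settled. Its potassium ratio of 1.61 lay beyond that limit.

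ALDH11A3 was the member that was lowest without potassium. It encodes the non-phosphorylating glyceraldehyde-3-phosphate dehydrogenase of the cytosol, which makes 3-phosphoglycerate and NADPH from glyceraldehyde 3-phosphate without using inorganic phosphate, and it belongs to the glycolytic bypasses described for phosphate-starved plants. Its signal was 563.3 on the full-nutrient, 562.4 on the nitrate-free, 622.7 on the phosphate-free and 415.2 on the potassium-free array. The full-nutrient and nitrate-free values were nearly equal, and the phosphate-free one was the highest. Without phosphate the signal was 1.11-fold the full-nutrient one, a log2 ratio of 0.14 that was smaller than the median difference between probe sets of the same gene. Without potassium it was 1.36-fold lower than with full nutrients (-0.44), and 1.50-fold lower than without phosphate (-0.58). The last ratio barely passed the value of 0.58 that 10% of same-gene differences exceeded for this pair of arrays. The ratio of -0.44 to the full-nutrient array lay between the median and the limit for its own pair. Of the probe sets above the floor on both of those arrays, 21.5% had a lower ratio. None of the 7 listed phosphorylating glyceraldehyde-3-phosphate dehydrogenase genes was named by the annotation, so the ordinary enzymes of this step were not analysed here.

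ALDH10A9 was the member that was lowest without nitrate. It encodes a peroxisomal enzyme of the betaine aldehyde dehydrogenase type that oxidises aminoaldehydes, the products of polyamine oxidation. Its signal was 140.1 on the full-nutrient, 99.3 on the nitrate-free, 131.3 on the phosphate-free and 163.2 on the potassium-free array. The nitrate-free value was the only one under 100 and the potassium-free value the highest. The nitrate-free signal was 1.41-fold lower than the full-nutrient one (log2 ratio -0.50), and of the 3742 probe sets bright enough on both arrays 6.81% had a lower ratio. This ratio lay between the median and the limit that 10% of same-gene differences exceeded. The potassium-free signal was 1.16-fold (0.22) and the phosphate-free signal 0.937-fold (-0.09) the full-nutrient one, both smaller than the median difference between probe sets of the same gene. Between the extremes, the potassium-free signal was 1.64-fold the nitrate-free one (0.72), still short of 2-fold. This ratio too lay within the limit that 10% of same-gene differences exceeded for its pair of arrays, so the order of the arrays is not settled for ALDH10A9.

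ALDH3F1 varied least among the measured members. It encodes a cytosolic enzyme of the ALDH3 group, whose members oxidise longer-chain aldehydes. Its signal was 86.5 on the full-nutrient, 91.7 on the nitrate-free, 96.0 on the phosphate-free and 95.1 on the potassium-free array. The 4 values lie together and have no settled order, since the log2 ratios of 0.08, 0.15 and 0.14 to the full-nutrient array were all smaller than the median difference between probe sets of the same gene. The highest signal was 1.11-fold the lowest, against 3.05-fold for ALDH7B4.

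ALDH6B2 was too dim to be followed. It encodes methylmalonate semialdehyde dehydrogenase, the mitochondrial enzyme of valine breakdown. Its signal was 11.8 on the full-nutrient, 22.0 on the nitrate-free, 10.9 on the phosphate-free and 19.1 on the potassium-free array, below the floor on all of them. With that floor it has no ratio.

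**Figure D2:**
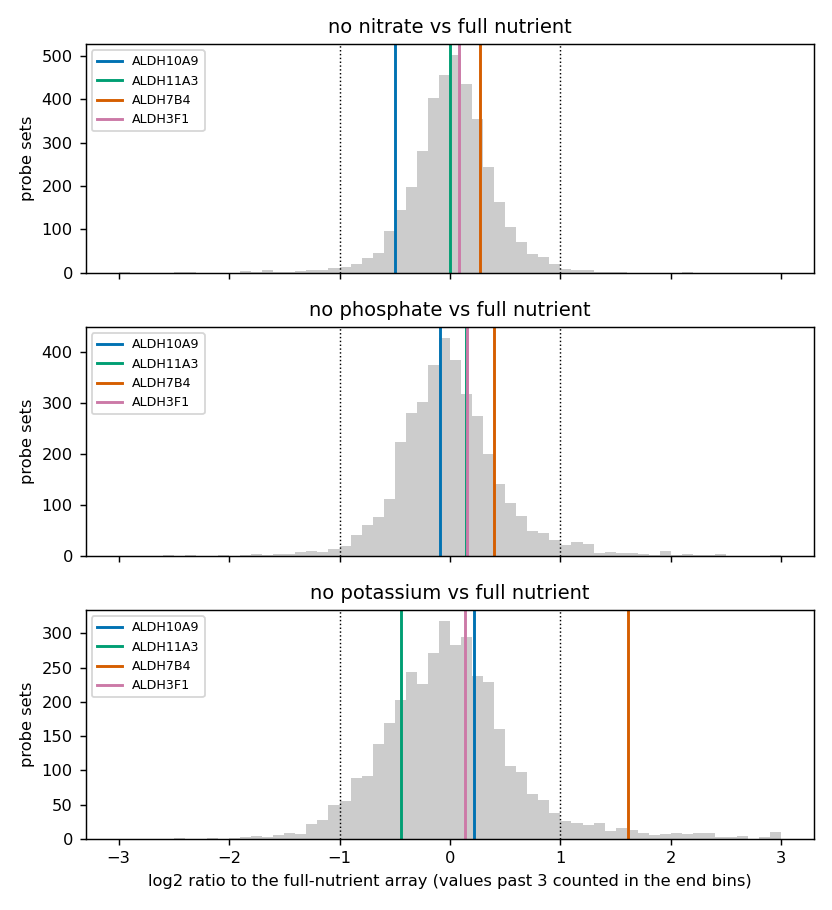
Log2 ratios of the depleted arrays to the full-nutrient one (horizontal axis), with the number of probe sets per bin of 0.1 in grey for those above the floor on both arrays, coloured lines for the 4 measured ALDH members and dotted lines at 2-fold. Without phosphate the lines of ALDH11A3 (0.14) and ALDH3F1 (0.15) overlap; only ALDH7B4 without potassium (1.61) lies past a dotted line.

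Across the family, 1 of 12 ratios reached 2-fold. Without nitrate 0 of the 4 measured members were at least 2-fold higher, where 0.424% of all probe sets were, and 0 were at least 2-fold lower, where 0.570% were. Their ratios ran from -0.50 to 0.27 with a median of 0.04, beside a median of 0.03 over all probe sets with a ratio. Without phosphate 0 of 4 were higher and 0 lower (background 1.86% and 0.715%), and the ratios ran from -0.09 to 0.40 with a median of 0.15, beside -0.01 over all probe sets. Without potassium 1 of 4 was higher and 0 lower (background 3.65% and 1.71%). These backgrounds are shares of all 8247 probe sets, dim ones included. Of the probe sets with a ratio, 0.848% were higher and 1.14% lower without nitrate. The shares were 3.62% and 1.40% without phosphate, and 7.01% and 3.28% without potassium. These sets also hold probe sets with 1 side at the floor, while the 4 members lay above it on all arrays, so the shares are not fully matched. In the potassium comparison the members' ratios ran from -0.44 to 1.61 with a median of 0.18, beside 0.00 over all probe sets. Of the 4 potassium ratios, those of ALDH10A9 and ALDH3F1 were smaller than the median difference between probe sets of the same gene and have no settled sign. These ratios all share the full-nutrient array. With 4 members, a count or median says little about the family, and the values of the single genes carry the description.

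The members were also set beside genes of the pathways they act in. Of 64 genes in 7 lists, chosen with earlier results of these data known, the annotation named 12, in 5 of the lists.

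Among the 5 listed genes of lysine breakdown, 3 were named and 2 were bright enough for a ratio. AT4G33150 (LKR/SDH) encodes the bifunctional enzyme that starts this pathway. Its signals were 33.0, 37.9, 61.4 and 154.9 on the full-nutrient, nitrate-free, phosphate-free and potassium-free arrays. The potassium-free array was the brightest for this gene, and it was 4.69-fold higher without potassium (log2 ratio 2.23). Its probe set has the ending that Affymetrix gave to sets shared by several transcripts, and its full-nutrient signal lay just above the floor. The sets of MCCA and COR47 and the brighter set of AT2G42490, described below, have the same ending. ETFQO, which passes electrons from such breakdown to the respiratory chain, had log2 ratios of 0.33, -0.44 and -0.26 without nitrate, phosphate and potassium, the last of them smaller than the median difference between probe sets of the same gene. D2HGDH, which oxidises a hydroxy acid of the same route, stayed between 22.0 and 25.0 and had no ratio.

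Of the 13 listed genes of branched-chain amino acid breakdown, the route of ALDH6B2, 4 were named. In every depletion 0 of them reached 2-fold in either direction, which with so few genes is near the shares over all probe sets given above and says nothing particular about the pathway. Without potassium MCCA had a log2 ratio of at least 0.82 from a full-nutrient signal at the floor and AT1G21400 one of 0.63. MCCB, the partner subunit of MCCA in methylcrotonyl-CoA carboxylase of leucine breakdown, had -0.25, and AT2G26800 had 0.18. Both of these ratios were smaller than the median difference between probe sets of the same gene. The median of these 4 was 0.40, with the bound at its limit and signals between 31.8 and 49.5 on the potassium-free array. Without nitrate the median of the 4 was -0.12, and without phosphate that of the 3 with a ratio was -0.01. The AT1G21400 ratio was a bound in both of these comparisons, and the MCCA ratio was a bound without nitrate.

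AT2G42490 was the only named gene of 11 listed for polyamine synthesis and oxidation, the source of the aldehydes that ALDH10A9 takes. Its log2 ratios were 0.54, 0.39 and 0.60 without nitrate, phosphate and potassium, as the mean of 2 probe sets. The dimmer of these sets, at 27.9 on the full-nutrient array, had 0.70 without nitrate, and the brighter, at 140.4, had 0.39. This gene was thus above the full-nutrient level without nitrate, where ALDH10A9 was below it. Neither the 0.39 nor the ALDH10A9 ratio of -0.50 passed the limit that 10% of same-gene differences exceeded. Against the mean of the other 3 arrays the ratios of AT2G42490 fell to 0.21 without nitrate, 0.01 without phosphate and 0.29 without potassium. AOR, a reductase of reactive carbonyls, was the only named gene of 6 listed for other aldehyde removal. It had log2 ratios of 0.18, -0.26 and -0.54, the last of them 1.45-fold lower without potassium, where ALDH7B4 was higher. The AOR ratio of -0.54 also lay within the limit that 10% of same-gene differences exceeded.

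Of 11 listed genes of dehydration and abscisic acid response 3 were named, and the median of their log2 ratios was 0.43 without nitrate, 0.52 without phosphate and -0.04 without potassium. COR15B, whose product protects chloroplasts in the cold, gave 284.5 on the full-nutrient, 742.3 on the nitrate-free, 644.6 on the phosphate-free and 192.1 on the potassium-free array. It was highest without nitrate and lowest without potassium, where ALDH7B4 was highest. KIN2, another cold- and abscisic acid-induced gene, had log2 ratios of 0.43, 0.52 and 0.07 without nitrate, phosphate and potassium. The dehydrin gene COR47 had -0.08, -0.45 and -0.04. For both genes these are means of 2 probe sets, which differed in sign in some comparisons. The sets of KIN2 had 0.18 and -0.04 without potassium. Those of COR47 had -0.22 and 0.06 without nitrate, and 0.01 and -0.09 without potassium. Thus 1 of the 3 was at least 2-fold higher without nitrate and without phosphate, and 0 without potassium, counts too small to read against the shares over all probe sets given above.

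**Figure D3:**
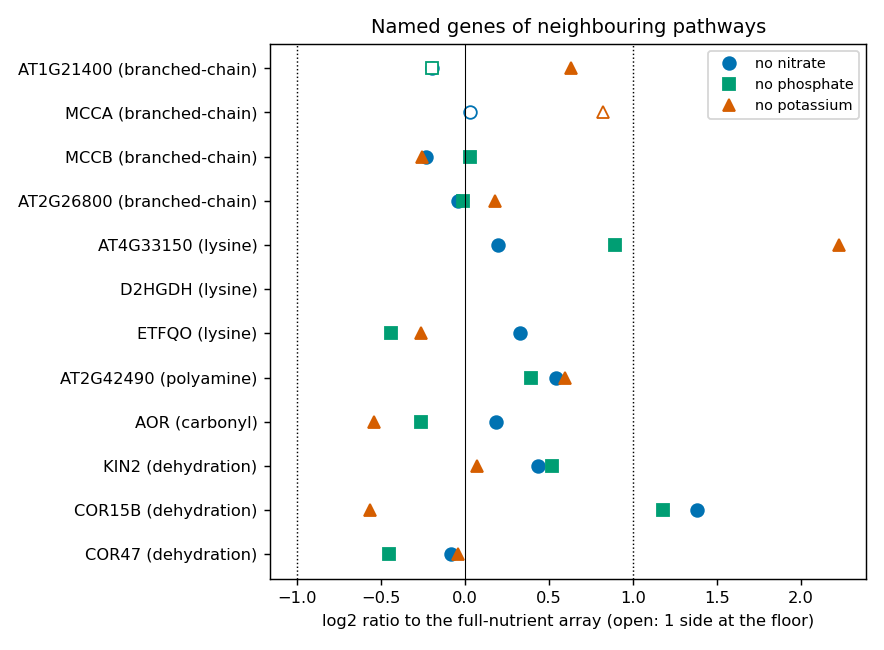
Log2 ratio to the full-nutrient array of the 12 named genes of the pathway lists, 1 symbol per depletion, open where 1 side lay at the floor and absent where both did, with dotted lines at 2-fold. AT4G33150 without potassium (2.23) and COR15B without nitrate (1.38) and phosphate (1.18) lie past the 2-fold line.

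The genes whose pattern over the 4 arrays came nearest to that of ALDH7B4 were looked for among 1427 other single-gene probe sets above the floor on all arrays. Likeness was the root mean square difference of log2 signals, each centred on the gene's mean over the 4 arrays, and its median over all candidates was 0.64. The nearest was AT4G24350, at 0.09, with 68.9, 71.7, 91.1 and 194.9 on the full-nutrient, nitrate-free, phosphate-free and potassium-free arrays. SDH1-1, which encodes the flavoprotein subunit of mitochondrial succinate dehydrogenase, followed at 0.13, with 93.1, 88.4, 114.9 and 262.7. AT4G36010 was next at 0.14, with 40.4, 46.3, 62.1 and 110.8. All of them were between 2.74-fold and 2.83-fold higher without potassium than with full nutrients, which follows from choosing them by this likeness. A pattern over 4 arrays, each from a single sample, is a description only, and with a pseudocount in place of the floor only 1 of these 3 genes was among the nearest 3. The other measured members spanned less than 2-fold, and no nearest genes are given for them.

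**Figure D4:**
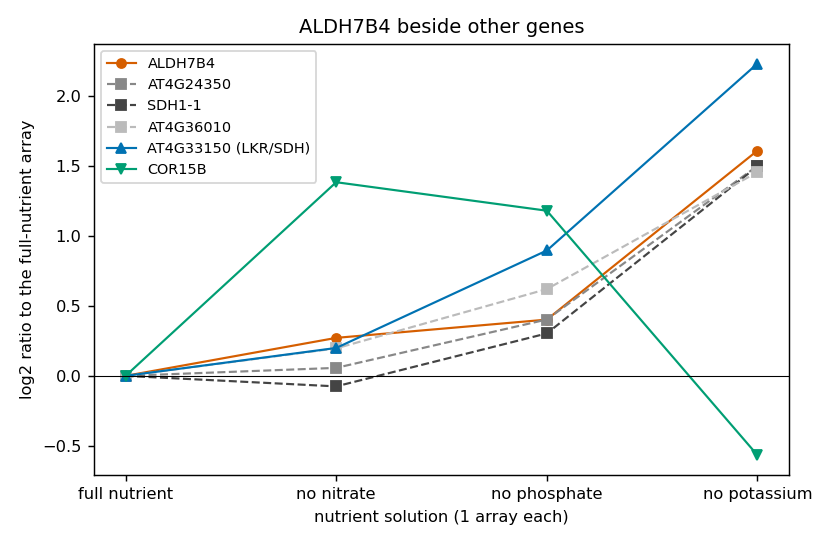
Log2 ratio to the full-nutrient array (set at 0) of ALDH7B4, of the 3 genes with the nearest pattern, of AT4G33150 and of COR15B on the 4 arrays, 1 value per array. ALDH7B4 (1.61) and AT4G33150 (2.23) are highest without potassium and COR15B is highest without nitrate (1.38).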

How the data were processed

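The deposited table holds intensity values on a linear scale, 1 for each probe set on each array. How the authors derived and scaled these signals is not given in the sources used here. Affymetrix controls (50 of 8297 probe sets) were set aside. Array background averaged 49.06 to 52.95 and noise 1.38 to 1.59, per the labels, and the full-nutrient array had 312 masked cells against 0 on the others. Groups came from the source names. The letters in the title of the phosphate-free sample differ from its source name, which matches its written treatment. Gene identifiers of 3784 single-gene probe sets were found in the TAIR10.1 gene table. No coordinates or sequences were used.

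Each array was rescaled to the shared trimmed mean (T = 100.16, 2% trimmed at each end), raised to at least 0.25 T where lower, and log2-transformed (Python 3.11.15, pandas 2.3.3, numpy 2.4.6). A ratio with both sides at the floor was not used, one with 1 side there is a bound, and the ratios of probe sets for the same gene were averaged. A member or list gene was counted from a 2-fold ratio. Genes named are the members, all measured genes of the lists, and the 3 nearest patterns of each member spanning 2-fold over the arrays. Members and lists were chosen with earlier results of these data known. The calculation of ratios was checked on simulated signals with known changes. The number of arrays limits the precision, and no p-value was possible.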

Additional observations from a re-analysis of the deposited data

How the results depend on the processing

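The ratios, medians and counts of the ALDH members were recomputed with a floor of 0.1 T, a floor of 0.5 T, a pseudocount of 0.25 T in place of a floor, quantile normalization, median centring, loess centring (statsmodels 0.14.6, span 0.4) and the mean of the other 3 arrays as the reference. Of 147 recomputed values, 145 moved by no more than the median difference between probe sets of the same gene, or were unchanged counts. ALDH7B4 remained the only member past 2-fold without potassium in all 7 alternatives, with a log2 ratio between 1.38 and 1.69. The values that moved were those of ALDH7B4 against the mean of the other 3 arrays, -0.40 without nitrate and -0.23 without phosphate, because that reference holds the bright potassium-free array. ALDH10A9 without nitrate ranged from -0.54 to -0.41 and ALDH11A3 without potassium from -0.49 to -0.35. The family median kept its sign except without nitrate, where it ranged from -0.21 to 0.08. ALDH6B2 had a ratio only under the floor of 0.1 T (log2 ratios 0.90, -0.11 and 0.69 without nitrate, phosphate and potassium) and with the pseudocount (0.35, -0.04 and 0.26). Recomputing the other results was chosen after seeing the data. Of 286 such values, 261 were counted as kept and 0 that had reached 2-fold changed sign. For ratios the limit was the same, but shares and numbers of genes had a looser one. The share of probe sets at least 2-fold above each other array on the potassium-free array ran from 1.10% to 1.99% and was counted as kept. Against the other depletions, ALDH7B4 without potassium stayed between 1.27 and 1.44 (nitrate) and between 1.15 and 1.25 (phosphate). AT4G33150 without potassium ranged more widely against the reference, between 1.63 and 2.26. It fell from 2.23 to 1.63 with the floor of 0.5 T and with the pseudocount. Against the mean of the other arrays it was 1.87. These lower values were counted as moved. COR15B without phosphate was at 0.91, under 2-fold, and without potassium at -1.42, past 2-fold, against the mean of the other arrays. Of the 3 genes nearest to ALDH7B4, 2 were the same with the floor of 0.5 T and 1 with the pseudocount. The share of all probe sets 2-fold higher without potassium ran from 2.59% with the floor of 0.5 T to 5.38% with that of 0.1 T. No paired analysis was possible because each group holds 1 array.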
